A study of Homo sapiens with 9 samples.

Results

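The 10 genes described here are regulators and markers of the epithelial to mesenchymal transition in MDA-MB-231 cells, chosen by name from the 60664 genes of the count files. They are the transcription factors *SNAI1*, *SNAI2*, *ZEB1*, *ZEB2* and *TWIST1*, the cadherins *CDH1*, *CDH2* and *CDH11*, and the mesenchymal markers *VIM* and *FN1*. The study asked how the viscosity of the fluid around cancer cells changes their behaviour, and whether the calcium channel *TRPV4* takes part in what cells retain of it. RNA was sequenced from 9 samples of MDA-MB-231, a human breast cancer line with a mesenchymal phenotype, in 3 groups of 3, all taken on day 6. Scramble control (SC) cells were kept in medium of 0.77 cP in the first group and in medium thickened with methylcellulose to 8 cP in the second. Changes with viscosity therefore cannot be told apart here from effects of methylcellulose itself. The third group, shTRPV4 cells at 8 cP, carried a hairpin against *TRPV4* delivered by lentivirus and kept stable by puromycin selection. SC and shTRPV4 cells are each a transduced line. The loss of *TRPV4* therefore cannot be told apart from other differences between the lines, off-target effects of the hairpin among them. Changes with the knockdown are differences between these lines. shTRPV4 cells in the thinner medium are not analysed here, so whether the knockdown changes the response to viscosity could not be tested. The labels do not say whether samples of a group came from separate cultures, and the p-values therefore measure the spread between these samples, which may be technical.

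In the transition, epithelial cells give up the junctions that hold them to their neighbours and take on the shape and motility of mesenchymal cells. Factors of the Snail (*SNAI1*, *SNAI2*), ZEB (*ZEB1*, *ZEB2*) and Twist (*TWIST1*) families bind E-box sequences, and the Snail and ZEB factors repress *CDH1*, which encodes E-cadherin, the adhesion molecule of adherens junctions. The change often brings N-cadherin (*CDH2*) or cadherin 11 (*CDH11*) together with the intermediate filament vimentin (*VIM*) and the matrix protein fibronectin (*FN1*). MDA-MB-231 is known as a line far on the mesenchymal side, with little or no E-cadherin.

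Total counts per sample ran from 64571681 to 103518036. Levels are given as CPM, counts per 1000000 of the library size after scaling by the trimmed mean of M values (TMM), and changes as log2 fold changes of edgeR's quasi-likelihood test with p-values adjusted by the Benjamini-Hochberg method over 18264 genes, of which those with an adjusted p below 0.05 are said to have changed. Markers of the line were present, with *CD44* between 754 and 906 CPM and *EGFR* between 195 and 266 CPM, while *ESR1* and *PGR* had at most 4 and 3 counts in a sample. *ERBB2* and *GATA3*, listed as low in this line, had 89.6 to 96.8 CPM and 11.9 to 16.4 CPM. *TRPV4* had 40, 28 and 54 counts in SC cells at 0.77 cP, 64, 45 and 24 in SC cells at 8 cP and 7, 1 and 13 in shTRPV4 cells, and was lower in the latter than in SC cells at 8 cP by a log2 fold change of −2.51 (SE 0.49, edgeR adjusted p = 0.00219). The share of mitochondrially encoded counts was 2.04 to 2.58% in SC cells at 0.77 cP, 2.23 to 2.44% in SC cells at 8 cP and 3.28 to 3.40% in shTRPV4 cells, and its part in the results was not tested.

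Of the 10 genes, 8 passed the filter on low counts and were tested, while *CDH1* and *TWIST1* did not pass it. At 8 cP, 5 of the 8 were lower than at 0.77 cP in SC cells and 0 were higher: *SNAI1*, *SNAI2*, *FN1*, *VIM* and *CDH11*. Among all genes tested 3518, or 19.3%, changed between these groups, 9.57% being higher and 9.69% lower. The members were chosen with earlier results of these data known, so counts above such shares describe the members and do not test them. Between shTRPV4 and SC cells at 8 cP, *VIM* and *ZEB1* were lower and none of the 8 was higher by edgeR's test (adjusted p below 0.05), while 20% of all genes changed, 9.02% higher and 11% lower. When shTRPV4 cells at 8 cP were set against SC cells at 0.77 cP, 6 of the 8 were lower and 0 higher, where 42.4% of all genes changed, 20.4% higher and 22% lower. The first 2 comparisons share the SC samples at 8 cP, and the last is the sum of both. The median log2 fold change of the 8 genes was −0.17, −0.14 and −0.34 in the 3 comparisons in this order, and that of all genes −0.0065, 0.00064 and −0.011. In RNA of whole cultures, fewer cells that express a gene and less RNA of it per cell cannot be told apart.

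**Figure D1:**
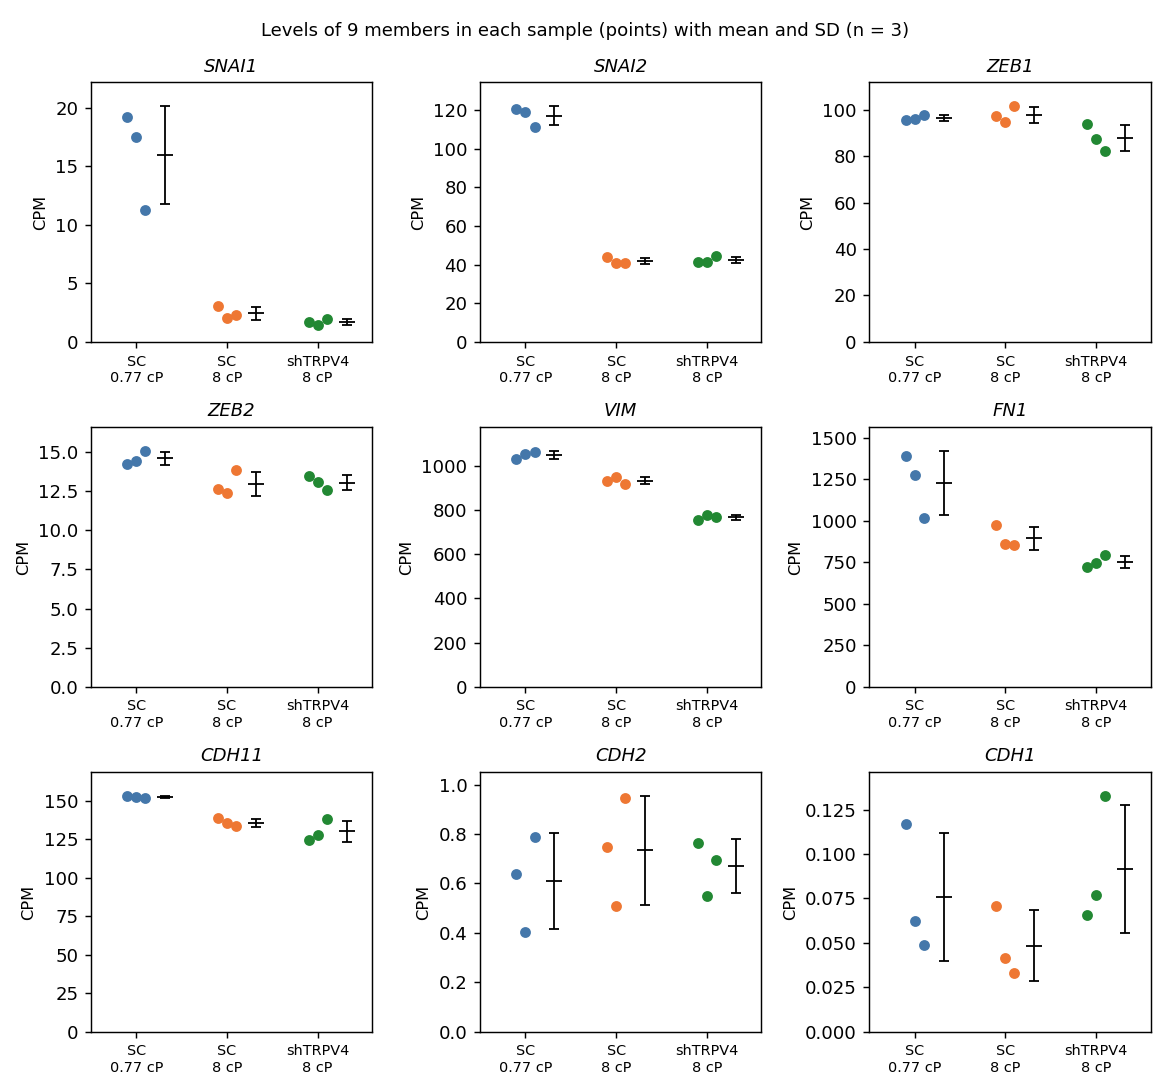
Level in CPM (vertical axes, from 0) of 9 of the 10 genes in each sample of the 3 groups (horizontal axes). Points are samples 1 to 3 of a group from left to right, and the bar beside them is the mean with the SD (n = 3). *SNAI1* and *SNAI2* stand well above both 8 cP groups in the 3 SC samples at 0.77 cP, *VIM* steps down from group to group, and the groups of *CDH2* and *CDH1* overlap. *TWIST1*, at 0 counts in all 9 samples, is left out.

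Of the 8 genes tested, the Snail factors showed the largest changes with viscosity. *SNAI1* (ENSG00000124216), the zinc finger repressor Snail, had 19.2, 17.5 and 11.3 CPM in SC cells at 0.77 cP, 3.04, 2.01 and 2.26 CPM in SC cells at 8 cP and 1.72, 1.48 and 1.96 CPM in shTRPV4 cells at 8 cP. Every sample at 0.77 cP was above every sample at 8 cP, also the third, which was the lowest of its group. In SC cells *SNAI1* fell by 84.7% with viscosity (log2 fold change −2.71, SE 0.18, edgeR adjusted p = 8.79e-08), and 17 of the 18264 genes, itself included, had a log2 fold change as low. The samples of shTRPV4 cells all lay below those of SC cells at 8 cP, but the difference did not pass the test (log2 fold change −0.50, SE 0.21, edgeR adjusted p = 0.107). It passed where SC replicate 3 at 0.77 cP was left out of the fit (adjusted p = 0.0245). It also passed where no filter on low counts was used (adjusted p = 0.000542), but that fit gave *SNAI1* an SE of 0.12. Its p-values do not follow the spread of each gene between samples. From SC cells at 0.77 cP to shTRPV4 cells the log2 fold change was −3.21 (SE 0.19, edgeR adjusted p = 8.73e-09), a fall of 89.2%. *SNAI1* maps to chromosome 20, bases 49982980 to 49988886 of GRCh38 (plus strand), and its exons share no base with another gene.

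*SNAI2* (ENSG00000019549), which encodes Slug, had 121, 119 and 111 CPM in SC cells at 0.77 cP. It had 43.7, 41.0 and 40.7 CPM in SC cells at 8 cP and 41.5, 41.3 and 44.2 CPM in shTRPV4 cells at 8 cP. The samples at 0.77 cP were far above the 6 samples at 8 cP, while SC and shTRPV4 samples at 8 cP overlapped. With viscosity *SNAI2* fell by 64.3% in SC cells (log2 fold change −1.49, SE 0.050, edgeR adjusted p = 1.93e-11), which had rank 6 by p among all genes tested. The difference between shTRPV4 and SC cells at 8 cP was 0.020 on the log2 scale, with a 95% interval from −0.087 to 0.13 (edgeR adjusted p = 0.826). *SNAI2* maps to chromosome 8, bases 48917598 to 48921740 (minus strand), and 121 of its 3281 exon bases are shared with ENSG00000288761 on the other strand.

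The proportion of the Snail factors to each other was set out by group, and was not itself tested. Per kb of exon, *SNAI2* was 4.14 ± 1.05 times as abundant as *SNAI1* in SC cells at 0.77 cP (mean and SD, n = 3), 9.49 ± 1.64 times in SC cells at 8 cP and 13.4 ± 1.48 times in shTRPV4 cells. The ranges of the 3 groups did not overlap, though the smallest two-sided p that an exact permutation test of 3 samples against 3 can give is 0.1. Between shTRPV4 and SC cells at 8 cP neither factor alone passed edgeR's test (*SNAI1* log2 fold change −0.50, adjusted p = 0.107, and *SNAI2* 0.020, adjusted p = 0.826). The genes whose log2 CPM was most like that of *SNAI2* over the 9 samples, among 9452 genes of at least 10 CPM, were *ATF3*, a stress-responsive transcription factor (Pearson r = 0.998), *NR4A1*, an orphan nuclear receptor (r = 0.996), and *CSF2*, a cytokine (r = 0.995). These correlations rest on 3 groups that differ, and describe the pattern only.

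The ZEB factors, zinc finger and homeodomain repressors, moved little. *ZEB1* (ENSG00000148516) had 95.5, 95.9 and 97.8 CPM in SC cells at 0.77 cP, 97.2, 94.8 and 102 CPM in SC cells at 8 cP, and 93.7, 87.4 and 82.3 CPM in shTRPV4 cells. The SC groups overlapped, and their difference of 0.022 on the log2 scale had a 95% interval from −0.085 to 0.13 (edgeR adjusted p = 0.803). The shTRPV4 samples lay below all others, by a log2 fold change of −0.16 (SE 0.050, edgeR adjusted p = 0.0381) from SC cells at 8 cP, or 10.3%. This call was lost when SC replicate 1, 2 or 3 at 8 cP, or shTRPV4 replicate 2 or 3, was left out (adjusted p between 0.0547 and 0.151). Against SC cells at 0.77 cP the log2 fold change of *ZEB1* in shTRPV4 cells was −0.14 (SE 0.050, edgeR adjusted p = 0.0403), a call that held in 1 of 9 fits without 1 sample, the one without shTRPV4 replicate 1, and was lost with DESeq2 (adjusted p = 0.0664), with no filter on low counts (adjusted p = 0.0554) and with only the 6 samples compared (adjusted p = 0.0737). *ZEB1* maps to chromosome 10, bases 31318495 to 31529814 (plus strand), and 396 of its 8650 exon bases are shared with *ZEB1-AS1* on the other strand.

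*ZEB2* (ENSG00000169554) was much less abundant per length. It had 14.2, 14.5 and 15.1 CPM in SC cells at 0.77 cP, 12.7, 12.3 and 13.9 CPM in SC cells at 8 cP and 13.5, 13.1 and 12.6 CPM in shTRPV4 cells. All samples at 0.77 cP were above all samples at 8 cP, but the differences from them did not pass the test, with a log2 fold change of −0.17 (SE 0.066, edgeR adjusted p = 0.0811) in SC cells and −0.16 (SE 0.066, adjusted p = 0.0618) in shTRPV4 cells. The latter passed with upper quartile scaling (adjusted p = 0.0397). Per kb of exon, *ZEB1* was 19.5 to 23.1 times as abundant as *ZEB2* over the 9 samples. This ratio depends on unshared exon lengths over all annotated transcripts, 24852 bases for *ZEB2* and 8254 for *ZEB1*, and may understate *ZEB2*. In CPM, the means in SC cells at 0.77 cP were 96.4 for *ZEB1* and 14.6 for *ZEB2*. *ZEB2* maps to chromosome 2, bases 144364364 to 144521057 (minus strand), and 1299 of its 26151 exon bases are shared with genes on the other strand, among them *ZEB2-AS1*.

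*TWIST1* (ENSG00000122691), a basic helix-loop-helix factor mapping to chromosome 7, bases 19020991 to 19117636 (minus strand), was listed at 0 counts in all 9 samples. A count of 0 allows a level of up to 0.0292 to 0.0468 CPM, depending on the depth of the sample, if 3 counts are taken as the floor, which covers counting error only. The 0 counts need care for a further reason. All 17 protein-coding genes whose exons lie wholly within exons of the other strand in GENCODE release 44 had 0 counts in every sample, against 18.6% of 12722 genes that share no base with the other strand, as in counting that ignores strand and drops reads on shared bases. In that release 141 of the 1997 exon bases of *TWIST1* are shared with ENSG00000232821. The release used for the counts was an earlier one and its gene models are not analysed here, so whether the 0 counts reflect the cells or the counting was not tested.

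**Figure D2:**
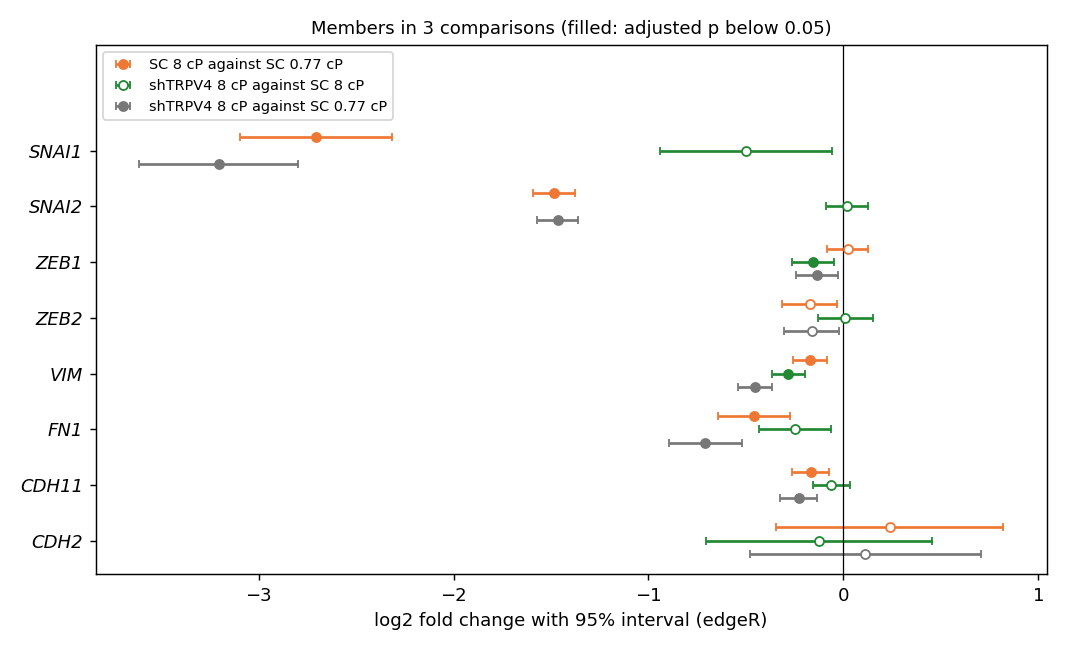
Log2 fold change (horizontal axis) with its 95% interval of the 8 genes tested (vertical axis) in 3 comparisons, fitted with edgeR to all 9 samples. Filled points have an adjusted p below 0.05. The points of *SNAI1* and *SNAI2* against SC cells at 0.77 cP lie furthest to the left, at −2.71 and −1.49 for SC cells at 8 cP, and those of *CDH2* have the widest intervals, all of which include 0.

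Of the 3 member cadherins, which join cells through calcium-dependent contacts, *CDH11* had the highest level. *CDH11* (ENSG00000140937), a mesenchymal cadherin first known from bone-forming cells, had 153, 152 and 152 CPM in SC cells at 0.77 cP, 138, 135 and 133 CPM in SC cells at 8 cP and 125, 128 and 138 CPM in shTRPV4 cells. The samples at 0.77 cP were above all others, and SC and shTRPV4 samples at 8 cP overlapped. *CDH11* was lower at 8 cP in SC cells by a log2 fold change of −0.17 (SE 0.045, edgeR adjusted p = 0.017). The call was lost when SC replicate 1 or 2 at 0.77 cP, or SC replicate 2 or 3 at 8 cP, was left out (adjusted p between 0.0661 and 0.104). Set against SC cells at 0.77 cP, shTRPV4 cells differed by a log2 fold change of −0.23 (SE 0.045, edgeR adjusted p = 0.000703), and set against SC cells at 8 cP, by −0.062 (adjusted p = 0.376). *CDH11* maps to chromosome 16, bases 64943753 to 65126112 (minus strand), and 254 of its 13275 exon bases are shared with ENSG00000278893.

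*CDH2* (ENSG00000170558), whose product N-cadherin is a usual sign of the transition, was near the limit of what could be tested. It had 60, 26 and 81 counts in SC cells at 0.77 cP, 74, 49 and 86 in SC cells at 8 cP and 70, 43 and 63 in shTRPV4 cells, or 0.405 to 0.947 CPM. The 3 groups overlapped. The log2 fold change with viscosity was 0.24 with a 95% interval from −0.35 to 0.82 (edgeR adjusted p = 0.591), and that between shTRPV4 and SC cells at 8 cP was −0.12 with an interval from −0.70 to 0.46 (adjusted p = 0.799). Changes in either direction within these intervals remain possible. *CDH2* maps to chromosome 18, bases 27932879 to 28177946 (minus strand).

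*CDH1* (ENSG00000039068) was close to absent in every group. It had 11, 4 and 5 counts in SC cells at 0.77 cP, 7, 4 and 3 in SC cells at 8 cP and 6, 6 and 12 in shTRPV4 cells. Summed over a group these are 0.0765 CPM (95% exact Poisson interval 0.0468 to 0.118), 0.0489 CPM (0.0267 to 0.0820) and 0.0922 CPM (0.0591 to 0.137), which cover counting error only. The intervals overlap. Without the filter on low counts, edgeR gave adjusted p-values of 0.653 with viscosity and 0.581 between shTRPV4 and SC cells at 8 cP. Between shTRPV4 cells and SC cells at 0.77 cP it was 0.867. The log2 fold changes in this order were −0.63, 0.90 and 0.26 with SEs of 0.73, 0.72 and 0.69. Changes in either direction therefore remain possible. As for *SNAI1*, the p-values of that fit do not follow the spread of each gene between samples. The fall of *SNAI1* and *SNAI2* at 8 cP was measured beside *CDH1* levels of at most 0.133 CPM in any sample. *CDH1* maps to chromosome 16, bases 68737292 to 68835537 (plus strand).

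The mesenchymal markers were the most abundant of the 10 genes. *VIM* (ENSG00000026025) had 1030, 1054 and 1063 CPM in SC cells at 0.77 cP, 932, 946 and 915 CPM in SC cells at 8 cP and 754, 777 and 766 CPM in shTRPV4 cells at 8 cP. No group overlapped another, each being lower than the one before. *VIM* fell by 11.2% with viscosity (log2 fold change −0.17, SE 0.041, edgeR adjusted p = 0.0095), a call lost without SC replicate 3 at 8 cP (adjusted p = 0.077). At 8 cP it was lower by 17.7% in shTRPV4 than in SC cells (log2 fold change −0.28, SE 0.041, edgeR adjusted p = 0.000193), and from SC cells at 0.77 cP to shTRPV4 cells it fell by 27.0% (log2 fold change −0.45, SE 0.041, adjusted p = 6.3e-07). *VIM* maps to chromosome 10, bases 17228241 to 17237593 (plus strand). Of its 5176 exon bases 1275 are shared with *VIM-AS1* or ENSG00000234961 on the other strand. *VIM-AS1*, an antisense RNA, itself had 3.85 CPM in shTRPV4 cells and 5.25 CPM in SC cells at 8 cP (log2 fold change −0.45, SE 0.13, edgeR adjusted p = 0.0221). The genes most like *VIM* over the 9 samples were *PFKFB3*, a glycolytic regulator (Pearson r = 0.997), *SPRY4*, an inhibitor of receptor tyrosine kinase signalling (r = 0.992), and *VGLL4*, a partner of TEAD factors (r = 0.992), by the same ranking as for *SNAI2*.

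*FN1* (ENSG00000115414) had 1394, 1277 and 1018 CPM in SC cells at 0.77 cP, 973, 858 and 852 CPM in SC cells at 8 cP and 720, 744 and 792 CPM in shTRPV4 cells at 8 cP. The groups again did not overlap, though the third sample at 0.77 cP was much nearer to those at 8 cP than the other two. *FN1* fell by 27.3% with viscosity (log2 fold change −0.46, SE 0.087, edgeR adjusted p = 0.00295) and by 38.8% from SC cells at 0.77 cP to shTRPV4 cells (log2 fold change −0.71, SE 0.088, adjusted p = 1.38e-05). With the knockdown at 8 cP the log2 fold change was −0.25 (SE 0.087, edgeR adjusted p = 0.056), which did not pass. It passed with DESeq2 (adjusted p = 0.0218), with a fit to only the 6 samples (adjusted p = 0.00992) and without SC replicate 1 or 3 at 0.77 cP (adjusted p = 0.0345 and 0.00635). It also passed with no filter on low counts (adjusted p = 1.04e-05), but in that fit *FN1* and *VIM* had the same SE of 0.0486. The p-values of that fit therefore do not follow the spread of each gene between samples. *FN1* maps to chromosome 2, bases 215360440 to 215436073 (minus strand), and its exons share no base with another gene.

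**Figure D3:**
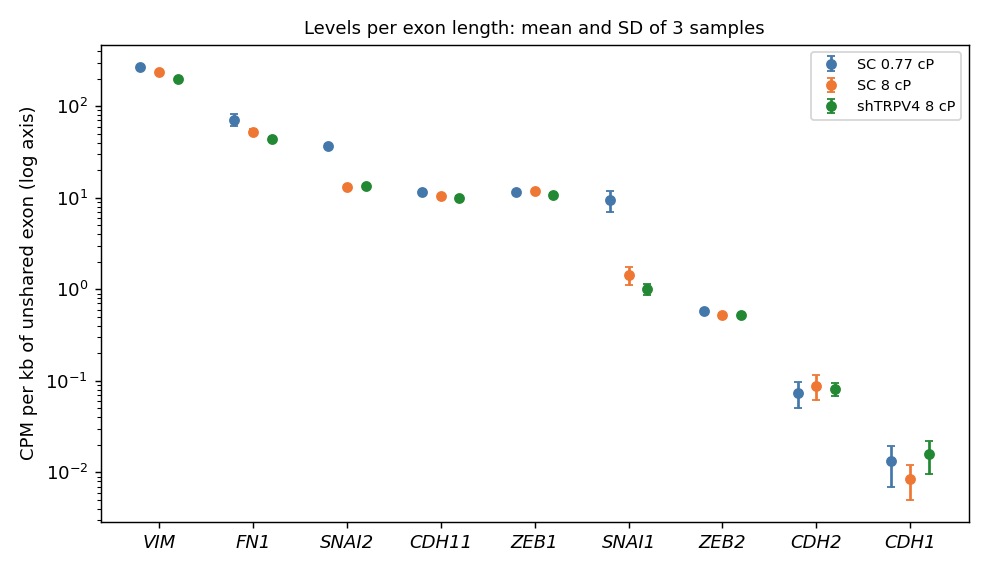
Level of 9 genes in CPM per kb of exon that no other gene shares (vertical axis, logarithmic), as the mean and SD of the 3 samples of a group. The genes run from *VIM* at 269 to *CDH1* at 0.0132 CPM per kb in SC cells at 0.77 cP, and *SNAI1* is the gene that moves furthest between groups.

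To compare genes with one another, CPM were divided by the length of the exon bases that no other gene shares, counted over all annotated transcripts, which understates genes with many rarely used exons. In SC cells at 0.77 cP the order of levels per kb was *VIM* (269 CPM per kb), *FN1* (71.4), *SNAI2* (37.1), *CDH11* (11.7), *ZEB1* (11.7), *SNAI1* (9.37), *ZEB2* (0.587), *CDH2* (0.0737) and *CDH1* (0.0132). The SDs of *CDH11*, *ZEB1* and *SNAI1* there were 0.0461, 0.148 and 2.44 CPM per kb. The mean of *SNAI1* was below those of *CDH11* and *ZEB1* by less than its own SD, though each of its samples lay below all of theirs. Differences between genes were not tested. At 8 cP in SC cells *SNAI2*, at 13.2 ± 0.535 CPM per kb (SD, n = 3), had come close to *ZEB1* at 11.9 ± 0.419 CPM per kb. *SNAI1*, at 1.43 ± 0.317 CPM per kb, lay between *ZEB1* and *ZEB2* at 0.521 ± 0.0320 CPM per kb. *CDH11*, at 10.4 ± 0.195 CPM per kb, came after *ZEB1* there. In shTRPV4 cells the order was that of SC cells at 8 cP, with *VIM* at 196, *ZEB1* at 10.6, *CDH11* at 9.99 and *SNAI1* at 1.01 CPM per kb, the SDs of *ZEB1* and *CDH11* being 0.696 and 0.528.

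*VIM* and *FN1*, markers that fell together, and *ZEB1*, whose level differed least with viscosity, are shown with the 250 bases before their RefSeq gene starts (GRCh38.p14), read 5′ to 3′ on the strand of the gene. Of the 10 genes 5 had such windows, 12 windows in all, among the 35116 of the table. Each window was searched on both strands for the E-box CAGGTG, read as CACCTG on the other strand, to which Snail and ZEB factors are known to bind, and for the cyclic AMP response element TGACGTCA and the AP-1 site TGANTCA, which read the same on both strands. No 2 of the motifs found overlapped. The motifs found are in capitals.
VIM chr10:17227991-17228240 (+): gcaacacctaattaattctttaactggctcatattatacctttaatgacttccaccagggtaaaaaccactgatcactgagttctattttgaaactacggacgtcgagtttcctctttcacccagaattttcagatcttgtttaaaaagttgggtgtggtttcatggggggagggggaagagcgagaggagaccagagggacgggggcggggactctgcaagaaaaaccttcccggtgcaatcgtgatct
FN1 chr2:215436069-215436318 (−): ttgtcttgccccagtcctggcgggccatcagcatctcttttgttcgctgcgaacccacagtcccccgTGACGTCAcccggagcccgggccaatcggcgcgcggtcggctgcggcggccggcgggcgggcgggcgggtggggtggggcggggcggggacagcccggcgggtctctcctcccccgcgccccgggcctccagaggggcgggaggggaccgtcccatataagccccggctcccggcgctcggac
ZEB1 chr10:31318167-31318416 (+): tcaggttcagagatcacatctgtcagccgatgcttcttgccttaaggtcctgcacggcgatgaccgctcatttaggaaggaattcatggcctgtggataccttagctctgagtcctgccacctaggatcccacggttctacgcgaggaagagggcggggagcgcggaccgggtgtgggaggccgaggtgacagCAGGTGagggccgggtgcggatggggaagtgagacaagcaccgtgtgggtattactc
The *VIM* window held none of the 3 motifs. In the *FN1* window the cyclic AMP response element began 183 bases before the start, a motif present in 1.65% of all windows. The *ZEB1* window held 1 E-box, beginning 57 bases before the start, a motif present in 17.5% of all windows, and of the other member windows only 1 further window of *ZEB1* held it. The AP-1 site, present in 6.57% of all windows, was found in 1 window of *CDH2*. A match describes the letters only.

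Other genes of the transition were read by role in the same fits, and the counts of each list stand beside shares of all genes tested of 9.57% higher and 9.69% lower with viscosity, and of 9.02% higher and 11% lower with the knockdown. These lists, too, were drawn up with earlier results of these data known, and their counts are descriptive. Of 19 further cadherins 5 were tested. *CDH4*, which encodes R-cadherin, was higher at 8 cP than at 0.77 cP in SC cells, with means of 84.0 and 70.1 CPM (log2 fold change 0.26, edgeR adjusted p = 0.0151), and lower in shTRPV4 than in SC cells at 8 cP (log2 fold change −0.36, adjusted p = 0.00177), while *CDH24* was higher in the latter comparison (0.25, adjusted p = 0.0158). Of 8 partners of cadherins tested, 3 were lower with viscosity and 0 higher. These were *JUP*, the junctional plakoglobin (−0.35, adjusted p = 0.000738), *CTNND1*, or p120 catenin (−0.22, adjusted p = 0.0289), and *NECTIN2* (−0.15, adjusted p = 0.0321). With the knockdown *AFDN*, the nectin-binding afadin, was higher (0.34, adjusted p = 8.29e-05) and *NECTIN3* lower (−0.34, adjusted p = 0.000118).

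No tested gene of the epithelial lists passed the test as higher at 8 cP than at 0.77 cP in SC cells. Of 21 epithelial adhesion and tight junction genes tested, 7 were lower and 0 higher at 8 cP in SC cells, and 7 were lower and 1 higher in shTRPV4 than in SC cells at 8 cP. *CLDN7*, a claudin, fell in both comparisons (log2 fold change −0.54 and −0.56, edgeR adjusted p = 0.00798 and 0.00551), as did *F11R*, a junctional adhesion molecule (−0.34 and −0.43, adjusted p = 0.00541 and 0.000701). *MUC1* fell with viscosity (−0.50, adjusted p = 0.0282). Of 17 epithelial transcription and splicing factors 7 were tested. With viscosity 2 were lower and 0 higher, *ELF3* (−1.22, SE 0.18, adjusted p = 0.000518) and *KLF4* (−0.49, SE 0.055, adjusted p = 3.72e-05). With the knockdown 3 were higher, among them *GATA3* (0.30, adjusted p = 0.00265) and the splicing factor *ESRP2* (0.28, adjusted p = 0.0483), and *KLF4* was lower (−0.19, adjusted p = 0.0213).

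Of 14 other transcription factors of the transition tested, 4 were lower and 2 higher with viscosity. *SOX9*, a factor known to act with *SNAI2* in mammary cells, had 149, 148 and 162 CPM in SC cells at 0.77 cP, 77.9, 73.3 and 74.6 CPM in SC cells at 8 cP and 64.4, 63.8 and 64.0 CPM in shTRPV4 cells. The groups did not overlap. Its log2 fold change was −1.02 (SE 0.047, edgeR adjusted p = 6.56e-10) with viscosity and −0.23 (SE 0.047, adjusted p = 0.00265) between shTRPV4 and SC cells at 8 cP. *FOXQ1* was also lower with viscosity (−0.52, adjusted p = 0.000567) and *LEF1* higher (0.53, adjusted p = 0.0204). With the knockdown 5 were lower and 0 higher, among them *SOX4* (−1.10, SE 0.12, adjusted p = 1.18e-05).

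Of 32 other mesenchymal and matrix genes tested, 11 were lower and 2 higher with viscosity. The lower ones included the integrin chain *ITGB3* (log2 fold change −0.76, edgeR adjusted p = 0.000736), the collagen chain *COL1A2* (−0.76, adjusted p = 0.000246) and the growth factor receptor *PDGFRB* (−0.51, adjusted p = 0.00553). With the knockdown 11 were lower and 6 higher. *ITGB1*, the chain shared by many fibronectin and collagen receptors, fell from a mean of 1927 to 924 CPM (−1.06, SE 0.046, adjusted p = 2.6e-09), *LOXL2*, a lysyl oxidase known to act with *SNAI1*, fell as well (−0.83, SE 0.048, adjusted p = 2.08e-08), and the proteoglycan *LUM* rose from 0.690 to 1.47 CPM (1.09, SE 0.19, adjusted p = 0.000917).

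**Figure D4:**
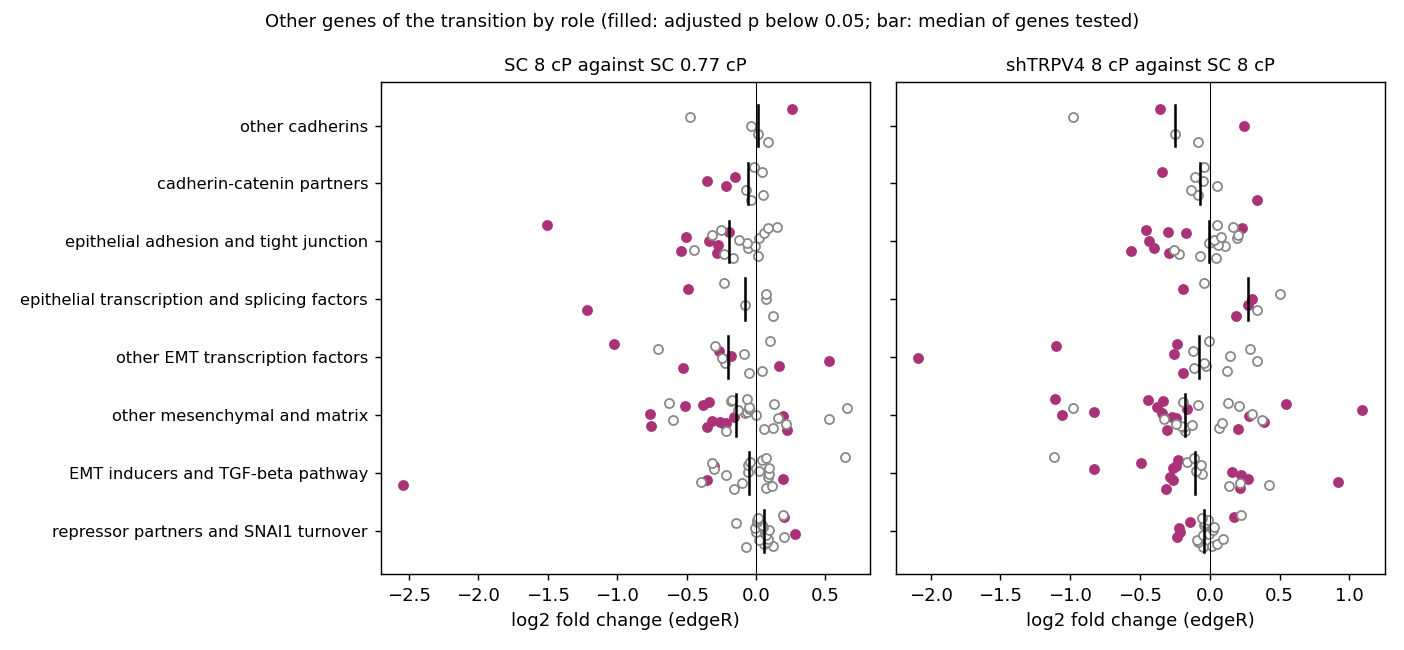
Log2 fold change (horizontal axes) of the genes tested in 8 lists of other genes of the transition (vertical axis), for SC cells at 8 cP against 0.77 cP (left) and shTRPV4 against SC cells at 8 cP (right). Each point is a gene, filled where the adjusted p was below 0.05, and the bar is the median of the genes tested. In the left panel 7 of 21 epithelial adhesion genes and 11 of 32 mesenchymal and matrix genes are filled on the lower side, against 0 and 2 on the higher side.

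Upstream of these factors, 22 genes that encode inducers or parts of the TGF-beta pathway were tested, of which 3 were lower and 1 higher with viscosity, near the share of 19.3% of all genes that changed. *IL6*, a cytokine that can induce the transition, had 29.7, 36.6 and 21.6 CPM in SC cells at 0.77 cP, 4.92, 5.36 and 4.73 CPM in SC cells at 8 cP and 5.38, 7.09 and 7.70 CPM in shTRPV4 cells. Its samples at 0.77 cP were far above all others (log2 fold change −2.54 in SC cells, SE 0.16, edgeR adjusted p = 3.82e-08). The Notch ligand *JAG1* (−0.36, adjusted p = 0.000238) and *TGFB1* (−0.30, adjusted p = 0.00328) were lower as well. With the knockdown 5 were higher and 8 lower, with *INHBA*, a chain of activin, higher (0.92, adjusted p = 0.000265), and the inhibitory *SMAD6* (−0.83, adjusted p = 6.89e-05) and *TGFB3* (−0.49, adjusted p = 0.0117) lower. Of 20 genes whose products repress together with the Snail and ZEB factors or control the turnover of *SNAI1*, 2 were higher and 0 lower with viscosity, *FBXO45* (0.28, adjusted p = 0.00411) and *SUZ12* (0.20, adjusted p = 0.00918), near the share of 9.57% of all genes that were higher. With the knockdown 1 was higher and 4 lower, among them *FBXL14* (−0.23, adjusted p = 0.0249), *HDAC1* (−0.22, adjusted p = 0.00124) and *FBXW7* (−0.21, adjusted p = 0.0325).

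Single markers of other cell types were near absent, but no list of them was absent as a whole. Of the leukocyte genes *CD3E*, a chain of the T cell receptor complex, had at most 6 counts in a sample, and the summed level of the list was 5.43 to 6.50 CPM in SC cells at 0.77 cP, 3.90 to 4.67 CPM in SC cells at 8 cP and 3.10 to 4.25 CPM in shTRPV4 cells, nearly all of it *CD14*. Of 4 endothelial genes *CDH5*, the endothelial cadherin, had at most 1 count in a sample and did not pass the filter, while 3 were tested. The sum of the 4 was 8.13 to 10.4, 6.80 to 7.11 and 4.07 to 4.74 CPM in the groups in this order. Of 6 fibroblast genes *DCN* had at most 2 counts, while 4 were tested. Among them *PDGFRB* had means of 6.31 CPM in SC cells at 0.77 cP and 4.41 CPM in SC cells at 8 cP. The sum of the 6 was 12.8 to 14.5, 10.4 to 10.6 and 10.9 to 12.0 CPM. Like *VIM* and *FN1*, the sums were highest in SC cells at 0.77 cP, and the leukocyte and endothelial sums, but not the fibroblast sum, had lower means in shTRPV4 than in SC cells at 8 cP. Their part in the results was not tested.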

How the data were processed

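RNA of 9 samples was measured, 3 in each of 3 groups taken from the titles. Per the labels and the study's methods, strand-specific poly(A) libraries were mapped to GRCh38.p13 with HISAT2 2.2.1, and the authors deposited exon read counts per gene (HTSeq 0.13.5, Ensembl release 104), without normalization. The strand option of the counting is not given in the sources used here. Symbols, positions and exon lengths come from GENCODE release 44 on the same build, which matched 60463 of 60664 genes, and promoter windows from RefSeq.

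In R 4.3.3, counts were scaled with TMM, filtered with filterByExpr (18264 genes) and tested with edgeR 4.0.16 (glmQLFit and glmQLFTest, 1 coefficient per group, all 9 samples), adjusted by the Benjamini-Hochberg method with a threshold of 0.05. The method was tested on simulated data. The common biological coefficient of variation was 0.0633, and total counts of 64571681 to 103518036 per sample set the floor for low genes. Replicates of a group differed by more than sampling noise. The members and gene lists were chosen with earlier results of these data known. Named were all members, *TRPV4*, up to 3 genes per list and comparison with the largest absolute log2 fold change among those with an adjusted p below 0.05 and at least 1 CPM, and the 3 genes most like the member with the smallest p. A few of the genes so chosen are left out of the text. Alternatives were DESeq2 1.42.0, upper quartile scaling, no filter, at least 10 counts, only the 6 samples compared, the replicate number as a block, a further absolute log2 fold change of at least 1 and leaving out each sample.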

Additional observations from a re-analysis of the deposited data

How the results depend on the processing

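Over 360 fits of single members under the alternatives, 325 kept direction and side of the threshold, 21 lost and 8 gained a call, and 6 turned direction. *SNAI1*, *SNAI2* and *FN1* with viscosity, and *VIM* with the knockdown, passed under all 15 alternative fits, in which no size of change was required. So did *SNAI1*, *SNAI2*, *VIM*, *FN1* and *CDH11* from SC cells at 0.77 cP to shTRPV4 cells. Leaving out 1 sample each, 3 to 5 members changed with viscosity (3 without SC replicate 3 at 8 cP) and 1 to 4 with the knockdown, 1 without SC replicate 1, 2 or 3 at 8 cP or shTRPV4 replicate 2 or 3, and 4 without SC replicate 3 at 0.77 cP. Without a filter on low counts 4 members changed with the knockdown, in a fit that gave *FN1* and *VIM* the same SE (0.0486). Calls gained in that fit therefore do not rest on the spread of each gene. With a log2 fold change of at least 1 required as well, 2, 0 and 2 members changed with viscosity, with the knockdown and with both, and 257, 345 and 847 of all genes. Over all genes, leaving out 1 sample gave 1409 to 4349 calls with viscosity (1409 without SC replicate 1 and 1927 without SC replicate 2 at 0.77 cP, 1418 without SC replicate 3 at 8 cP) and 2179 to 3836 with the knockdown (2361 and 2179 without SC replicate 1 and 2 at 8 cP). Turned directions were those of values near 0 when 1 sample was left out: with the knockdown *CDH2* ranged from −0.34 to 0.097, *ZEB2* from −0.027 to 0.061 and *SNAI2* from −0.013 to 0.054, and *CDH2* with both from −0.079 to 0.35. The causes were not tested. Deviations of same-numbered samples of different groups had correlations from −0.17 to 0.27, and those of differently numbered samples from −0.24 to 0.27. The ranges were alike, which cannot show whether same-numbered samples shared a culture or a batch. With the replicate block 5, 2 and 6 members changed in the 3 comparisons, and 3475, 3607 and 7731 genes. Low counts limit *CDH1* and *CDH2*, and why *TWIST1* had 0 counts was not tested.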
